A study of Mus musculus with 3 samples.

Results

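Semaphorins and their receptors were followed in mouse dental papillae at 3 stages of first molar development. The group was taken as every probe set whose only gene symbol in the platform annotation is Sema3 to Sema7 with a letter a to g, a plexin of class A to D with a number, Nrp1 or Nrp2. It holds 78 of the 45101 probe sets on the array and 31 of the 18193 genes with a symbol of their own. These are 7 genes of secreted class 3 semaphorins, 13 of membrane-bound classes 4 to 7, 9 of plexins and 2 of neuropilins.

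The papilla is the condensed mesenchyme of the tooth germ, from which odontoblasts and pulp arise. It was taken from lower first molar germs of ICR mice, an outbred stock, at embryonic day 16 (E16), embryonic day 18 (E18) and postnatal day 3 (P3). No group carried a mutation or a treatment, tissue was freed with enzyme, and each RNA sample pooled over 20 papillae. There was 1 array per stage, 3 in all, so no difference has a replicate check, no p-value is given, and with so few arrays the precision of each value is limited.

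Semaphorins are guidance signals that bind plexins on the receiving cell. Class 3 members are secreted and mostly need a neuropilin as the binding partner of a class A plexin, with Nrp1 serving Sema3a and Nrp2 serving Sema3f. The other vertebrate classes are held at the membrane and bind plexins directly, and neuropilins also take part in VEGF reception. In the mouse tooth, Sema3a in the dental mesenchyme is known to keep trigeminal axons out of the papilla until late in development. Sema4d acts through plexin-B1 and Sema3a through Nrp1 in bone remodelling, and Sema3e acts through plexin-D1 on endothelial cells.

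Values below are recovered signals, in the arrays' own units. They were worked out from the deposited ratios, as described under processing. Values lower than 82.0, the median over all probe sets and arrays, were treated as below the floor. Each gene is given by its probe set with the highest mean recovered signal, the brightest one, and other probe sets are named where they differ. A difference of at least 2-fold between 2 arrays was counted, and a fold written with "at least" has 1 array below the floor.

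At P3 the main differences from E16, by brightest probe set, were lower Nrp2, Sema3f and Sema4f, and higher Plxnd1, Sema4b, Sema4d, Sema3d and Sema5a. Of the 27 members measured at or above the floor on at least 1 of the 2 arrays, 5 were at least 2-fold higher and 3 were at least 2-fold lower. Among all 12188 genes measured in that comparison, 6.58% were higher and 15.6% were lower. The member shares were 18.5% and 11.1%. The median log2 difference of the members was -0.06, beside -0.17 for all genes.

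Upstream sequence is shown for 5 genes that stood out, 3 that were higher at a later stage (Plxna2, Plxnd1 and Sema3d) and 2 that were lower at P3 (Nrp2 and Sema4f). Each is the 250 bases before the RefSeq start in build GRCm38.p6, 5′ to 3′, and capitals mark GC boxes (GGGCGG on either strand).
Plxna2 (chr1:194619579-194619828, plus strand): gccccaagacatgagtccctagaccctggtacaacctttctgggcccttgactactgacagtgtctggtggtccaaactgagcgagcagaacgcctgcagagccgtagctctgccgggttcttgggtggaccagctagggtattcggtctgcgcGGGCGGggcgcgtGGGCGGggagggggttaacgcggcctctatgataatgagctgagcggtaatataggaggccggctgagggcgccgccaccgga
Plxnd1 (chr6:115995006-115995255, minus strand): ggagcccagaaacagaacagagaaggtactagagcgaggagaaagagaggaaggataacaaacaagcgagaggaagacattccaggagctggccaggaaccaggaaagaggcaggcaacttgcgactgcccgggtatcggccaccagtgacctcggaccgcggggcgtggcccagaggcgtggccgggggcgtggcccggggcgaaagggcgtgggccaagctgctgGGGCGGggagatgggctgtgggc
Sema3d (chr5:12382916-12383165, plus strand): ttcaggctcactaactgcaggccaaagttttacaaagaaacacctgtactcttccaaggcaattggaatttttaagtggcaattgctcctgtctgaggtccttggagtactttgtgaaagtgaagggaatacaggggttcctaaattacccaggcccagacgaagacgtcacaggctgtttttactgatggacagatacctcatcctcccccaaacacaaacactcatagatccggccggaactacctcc
Nrp2 (chr1:62703067-62703316, plus strand): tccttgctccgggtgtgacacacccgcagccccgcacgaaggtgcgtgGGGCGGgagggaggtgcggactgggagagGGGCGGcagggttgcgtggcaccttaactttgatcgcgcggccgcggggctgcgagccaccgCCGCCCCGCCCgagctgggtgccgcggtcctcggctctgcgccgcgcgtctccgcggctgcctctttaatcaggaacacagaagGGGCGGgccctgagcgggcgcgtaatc
Sema4f (chr6:82939770-82940019, minus strand): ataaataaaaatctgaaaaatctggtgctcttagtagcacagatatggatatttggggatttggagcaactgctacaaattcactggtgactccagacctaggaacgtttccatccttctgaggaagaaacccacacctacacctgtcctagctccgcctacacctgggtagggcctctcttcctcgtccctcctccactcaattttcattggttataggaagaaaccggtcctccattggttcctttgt

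The upstream windows of Nrp2, Plxna2 and Plxnd1 held 5, 2 and 1 GC boxes, and those of Sema3d and Sema4f held 0. Among these 5 genes, windows with and without a GC box occurred in both directions. The 5 were picked from the members, so they cannot bear on direction, and a link was not tested. Nrp2 had a GC content of 72.4% and Sema4f one of 46.0%. The RefSeq table matched 26 of the 31 genes with 37 windows, and Plxna1, Plxna4, Sema3b, Sema3f and Sema6a were not matched. A GC box was in 27 of the 37 windows (73.0%), against 42.6% of the 21262 windows of protein-coding genes and 32.7% of all 32851. A CCAAT box (CCAAT, either strand) was in 7 of them (18.9%), against 35.4% of protein-coding windows and 33.8% of all. The letters TATAAA, on either strand, were in 0 of the 37, against 11.6% of protein-coding windows and 12.4% of all. The member windows were also richer in GC, with a median of 64.0%, beside 55.6% for protein-coding windows and 52.4% for all. The part of GC content in these motif shares was not tested. Motifs were counted separately and may share bases, and windows of 1 gene are not independent.

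Among the secreted semaphorins, Sema3f and Sema3d differed most. Sema3f, a repellent of axons that carry Nrp2, had signals of 1059 at E16, 504.4 at E18 and 169.3 at P3. It was 6.25-fold lower at P3 than at E16 (log2 difference -2.64). This value comes from a probe set of a type (_x_at) that can detect several transcripts, also of other genes. A second probe set, of the type made for 1 gene, read 81.31, 109.3 and 83.2 at E16, E18 and P3. The third, of a type (_a_at) shared between transcripts of 1 gene, read 83.89, 12.42 and 13.3. With values raised to the floor, these gave log2 differences of 0.02 and -0.03 at P3 against E16, both bounds. By deposited ratios the third was 6.31-fold lower at P3 than at E16, close to the brightest, and the second was near level. Sema3f was thus counted past 2-fold by 1 of its 3 probe sets. The second stayed near the floor, and the third was below it at E18 and P3.

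Sema3d, a class 3 member studied in neural crest cells of zebrafish, read 31.94 at E16, 259.7 at E18 and 176.3 at P3. Only the E16 array was below the floor. Relative to E16, Sema3d was higher by at least 3.17-fold at E18 and by at least 2.15-fold at P3. Its other probe set stayed below the floor at all 3 stages, at 24.4, 50.88 and 29.6. Because E16 was below the floor, Sema3d could enter these comparisons only as higher.

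Sema3a, the signal tied to the timing of tooth innervation, was nearly level, at 179.9 at E16, 181 at E18 and 158.5 at P3. The signal at P3 was 1.14-fold below that at E16, and the other 2 probe sets were below the floor on all 3 arrays. Sema3e, the direct ligand of plexin-D1, read 562.6, 523.8 and 727.3 at E16, E18 and P3, or 1.29-fold higher at P3 than at E16. A second Sema3e probe set read 120.5, 227.1 and 315.4 and was 2.62-fold higher at P3. Both of these Sema3e probe sets were higher at P3, by amounts that differed. The other two of its 4 were below the floor throughout, at 30.5, 26.9 and 39.0 and at 22.89, 36.73 and 12.0, with deposited ratios of P3 to E16 of 1.28 and 0.524.

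Sema3g, a ligand of Nrp2 known from vessels, read 130, 85.44 and 96.3 across E16, E18 and P3, 1.35-fold lower at P3 than at E16. Sema3b, an Nrp-dependent repellent, read 97.53, 58.55 and 132.5. Sema3c, known for its part in cardiac neural crest migration, was above the floor only at E18, with 57.27, 135.2 and 38.5. These 3 genes lay close to the floor and none was past 2-fold, a count that the floor decides for Sema3b and Sema3c. With the floor at 0.5 times its value, Sema3c came to 1.24 on the log2 scale at E18 against E16 and -1.72 at P3 against E18, and Sema3b to 1.18 at P3 against E18. In the RefSeq annotation Sema3d and Sema3a are next to each other with 0 protein-coding genes between them, and 3 lie between Sema3a and Sema3e. Sema3b and Sema3f also have 3 between them. The neighbours Sema3d and Sema3a had different patterns, a rise above the floor at E18 in the one and level signals in the other.

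**Figure D1:**
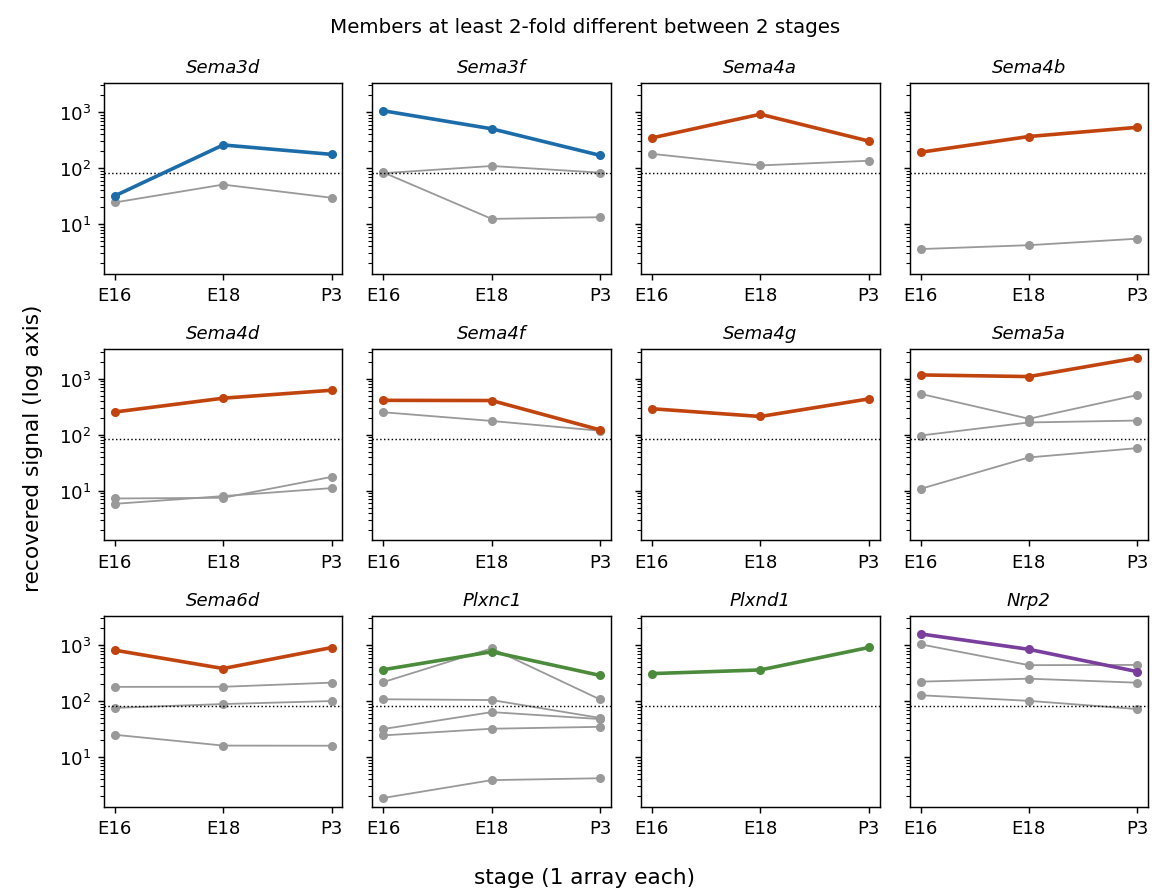
Recovered signal (vertical log axis, array units) at E16, E18 and P3, 1 array each, of the 12 members whose brightest probe set was at least 2-fold different between 2 stages. Thick coloured lines are brightest probe sets (blue secreted semaphorins, orange membrane-bound ones, green plexins, purple neuropilins), grey lines the gene's other probe sets, and the dotted line the floor of 82.0. Nrp2 and Sema4f are lowest at P3 by their brightest probe sets, and Plxnd1, Sema4b, Sema4d and Sema5a are highest there.

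Class 4 semaphorins went both ways. Sema4b read 192.3 at E16, 367.6 at E18 and 536.6 at P3, and was 2.79-fold higher at P3 than at E16. Sema4d, also known as CD100 and made by leukocytes and osteoclasts, read 253.7, 447.8 and 621.3, and was 2.45-fold higher. Both were higher at each later stage, and neither step on its own reached 2-fold. The other 2 Sema4d probe sets were below the floor throughout, with deposited ratios of P3 to E16 of 2.43 and 1.91. The other Sema4b probe set was below the floor too, with a ratio of 1.53.

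Sema4f, a transmembrane semaphorin, read 410 at E16, 406.9 at E18 and 121.5 at P3. P3 was 3.37-fold below E16 and 3.35-fold below E18. Its second probe set read 251.3, 175.7 and 117.3 and was 2.14-fold lower at P3 than at E16. Sema4f was therefore lower at P3 by both probe sets, one of them of the single-gene type. Sema4c, a ligand of plexin-B2, read 921.3, 956.8 and 498.3, or 1.85-fold lower at P3 than at E16, just under the threshold.

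Sema4a, which acts on immune cells and vessels, had its highest signal at E18 by its brightest probe set, 347 at E16, 917.8 at E18 and 304.9 at P3. That made it 2.65-fold higher at E18 than at E16 and 3.01-fold lower at P3 than at E18. The other Sema4a probe set, of the single-gene type, read 180.1, 111.9 and 135.6 and went the opposite way at both steps. The direction for Sema4a at E18 is thus unsettled between the probe sets. Sema4g, with 1 probe set, read 290.4, 211.1 and 434.9 and was 2.06-fold higher at P3 than at E18.

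Of the other membrane-bound classes, Sema5a stood highest at P3. Sema5a, which carries thrombospondin repeats beside its semaphorin domain, read 1166 at E16, 1090 at E18 and 2357 at P3, and was 2.02-fold higher at P3 than at E16. A second probe set gave 536, 192.2 and 509.9, or 1.05-fold lower at P3 than at E16. The third gave 96.52, 165.2 and 178.7, or 1.85-fold higher. All 3 of these Sema5a probe sets were higher at P3 than at E18, by 2.16-fold, 2.65-fold and 1.08-fold.

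Sema6a, a ligand of plexin-A2 and plexin-A4, read 346.3 at E16, 189.4 at E18 and 180.6 at P3, 1.92-fold lower at P3 than at E16. Its other 2 probe sets were below the floor. Sema6d, a ligand of plexin-A1, read 814.3, 382.5 and 905.9, so that E18 was 2.13-fold below E16 and P3 was 2.37-fold above E18. This dip was not seen by the other 2 measured Sema6d probe sets, which read 179.9, 180.6 and 214.1 and 75.86, 88.79 and 100.4 at E16, E18 and P3. Sema6c read 309.5, 250 and 347.1, under 2-fold at each step. Sema7a, a membrane-anchored ligand of integrins and of plexin-C1, read 595.6, 412.3 and 572.2 and was 1.04-fold lower at P3 than at E16. Sema5b and Sema6b were below the floor on all 3 arrays.

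Among the plexins above the floor on all 3 arrays, Plxnd1 and Plxnc1 differed most between stages by their brightest probe sets. Plxnd1, the receptor of Sema3e on endothelial cells, read 310.5 at E16, 361 at E18 and 908.6 at P3. P3 exceeded E16 by 2.93-fold and E18 by 2.52-fold, on the only probe set for the gene. Of 12 endothelial marker genes, 10 were measured at P3 against E16, with 1 at least 2-fold higher and 1 at least 2-fold lower. The summed signal of the 12 was 4827, 2632 and 3066 at E16, E18 and P3. It was 0.635 times as high at P3 as at E16 and 1.16 times as high at P3 as at E18, the step at which Plxnd1 was 2.52-fold higher. Most of the lower sum came from Kdr, and without it, a choice made after the values were seen, the sum was 2256, 1570 and 2219, with ratios of 0.984 for P3 over E16 and 1.41 for P3 over E18. The part of endothelial cells in the Plxnd1 values was not tested. In pooled tissue, a change in the number of cells of a type and in RNA per cell cannot be told apart.

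Plxnc1, the receptor of Sema7a, was highest at E18. Its brightest probe set read 364.6 at E16, 762.9 at E18 and 288 at P3, and the second 219, 877.6 and 107.1. Plxnc1 was 2.09-fold and 4.01-fold higher at E18 than at E16 by these 2, and 2.65-fold and 8.19-fold lower at P3 than at E18. The third measured probe set read 108.2, 104.8 and 50.1 and did not show the E18 peak. Both brighter probe sets also read lower at P3 than at E16, by 1.27-fold and 2.04-fold.

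Plxna2, a receptor for class 3 signals with a neuropilin and for Sema6a directly, was below the floor at E16 by all 4 of its probe sets. The brightest read 56.48 at E16, 124.1 at E18 and 136.7 at P3, which puts it above E16 by at least 1.51-fold at E18 and at least 1.67-fold at P3. The deposited ratios of the 4 probe sets were 2.20 to 6.48 for E18 over E16 and 2.42 to 10.1 for P3 over E16. All 4 thus agree in direction, and the floor keeps the count from including Plxna2. Because E16 was below the floor, Plxna2 could not come out lower.

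Plxna4 crossed the floor only at P3, with 24.04, 80.15 and 147.6 across E16, E18 and P3, so that P3 exceeded E16 by at least 1.80-fold. Its other probe set stayed below the floor, with a deposited ratio of 0.796 for P3 over E16. Plxna1 read 136.4, 204.4 and 239.3, or 1.75-fold higher at P3 than at E16. Plxna3 read 434.5, 243.3 and 369, or 1.18-fold lower. Plxna1 and Plxna3, the class A plexins with both arrays above the floor, were thus within 2-fold of E16 at P3.

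Plexins of class B were close to level. Plxnb1, the receptor of Sema4d, read 489.4 at E16, 467.7 at E18 and 405.7 at P3, P3 being 1.21-fold below E16, or 1.90-fold by its second probe set. Plxnb2 read 557.2, 645 and 492, 1.13-fold lower. Plxnb3 was below the floor on all 3 arrays.

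The neuropilins differed from each other. Nrp2 read 1589 at E16, 841.6 at E18 and 336.9 at P3, and was 4.72-fold lower at P3 than at E16. The second Nrp2 probe set read 1036, 439.3 and 444, 2.33-fold lower at P3. The third read 222.9, 251.9 and 213.7, 1.04-fold lower, and the fourth, below the floor at P3, was at least 1.55-fold lower. All 4 were lower at P3, and their sizes ranged from near level to 4.72-fold. By the second probe set the whole difference was present at E18, and by the first it was spread over both steps.

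Nrp1 read 1522 at E16, 1993 at E18 and 1369 at P3, 1.11-fold lower at P3 than at E16. Its other 3 probe sets gave 1.48-fold and 1.29-fold lower and 1.36-fold higher. At E18 against E16 the brightest was 1.31-fold higher and 2 others were 2.01-fold and 2.48-fold lower, so no direction is settled for Nrp1 at that step.

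**Figure D2:**
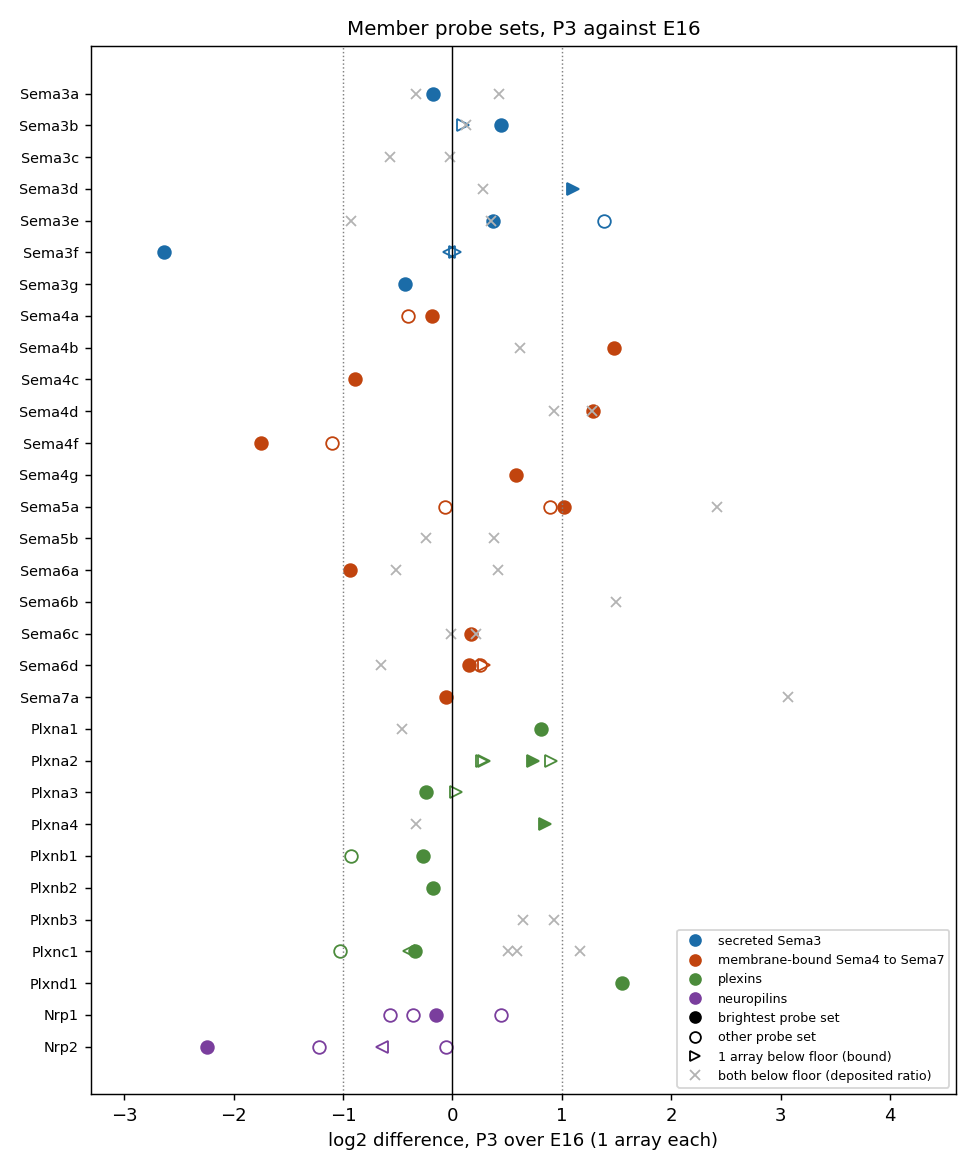
Log2 difference of P3 over E16 (horizontal axis) for every probe set of the 31 genes (rows, coloured by subfamily), 1 array per stage. Filled symbols are brightest probe sets, open symbols other measured ones, triangles bounds with 1 array below the floor, and grey crosses deposited ratios with both arrays below it. Dotted lines mark 2-fold. The brightest Sema3f probe set stands at -2.64 and that of Plxnd1 at 1.55. Other probe sets of Sema3f are bounds drawn near 0, 1 of them with a deposited log2 ratio of -2.66.

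Set against each other by subfamily at P3 against E16, the median log2 difference was 0.09 for 6 measured secreted semaphorins, 0.15 for 11 membrane-bound ones, 0.28 for 8 plexins and -1.20 for the 2 neuropilins. All genes measured had a median of -0.17. The subfamily medians rest on few genes and moved with the processing. That of the plexins became -0.21 with the floor at 2 times its value and 0.81 with no floor. The secreted semaphorins came to -0.18 with the floor at 0.5 times or with no floor, and to 0.39 after scaling on bright probe sets. The membrane-bound ones ran from 0.05 without probe sets shared between transcripts to 0.46 after quantile normalization, and the neuropilins came to -0.59 with the median over probe sets. The secreted semaphorins had 1 member past 2-fold in each direction, the membrane-bound ones 3 higher and 1 lower, and the plexins 1 higher and 0 lower. Of the neuropilins 1 was lower. Counted by probe set, 6 of 50 measured were higher and 6 lower (12.0% each), beside 6.04% and 14.4% of all 25109 measured probe sets.

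Scaling between the arrays moved both the members and the background. After quantile normalization the median of the members was 0.31 and that of all genes 0.02, so that the members' median exceeded that of all genes by 0.29, against 0.11 as deposited. The members' counts were again 5 higher and 3 lower, beside a background of 9.98% higher and 10.5% lower. After scaling on bright probe sets the medians were 0.23 and 0.09, a gap of 0.14, with 7 members higher and 3 lower beside 10.2% and 9.56% of all genes.

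At E18 against E16, few members differed by 2-fold. Of 27 measured, 3 were higher (Sema3d, Sema4a and Plxnc1) and 2 lower (Sema3f and Sema6d), 11.1% and 7.41%, beside 8.10% and 8.13% of 12029 genes. These shares are near the background. The median log2 difference was -0.01 for the members and -0.04 for all genes. Only Plxnc1 of the 5 had a second measured probe set past 2-fold in the same direction. A Sema3f probe set below the floor at E18 was 6.75-fold lower by deposited ratio, a size that the floor removed. Counted by probe set, 4 of 47 measured were higher and 6 lower, beside 7.65% and 7.95% of all measured probe sets.

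At P3 against E18, 4 of 28 measured members were at least 2-fold higher (Sema4g, Sema5a, Sema6d and Plxnd1), and 5 were lower (Sema3f, Sema4a, Sema4f, Plxnc1 and Nrp2). The shares were 14.3% and 17.9%, beside 4.08% and 11.8% of 12115 genes. The median was 0.16 for the members and -0.15 for all genes. Counted by probe set, 5 of 50 measured were higher and 6 lower, beside 3.75% and 10.5% of all. After quantile normalization the same counts of 4 and 5 stood beside a background of 6.51% and 7.26%. The 3 comparisons share arrays, so their values are not independent of each other.

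**Figure D3:**
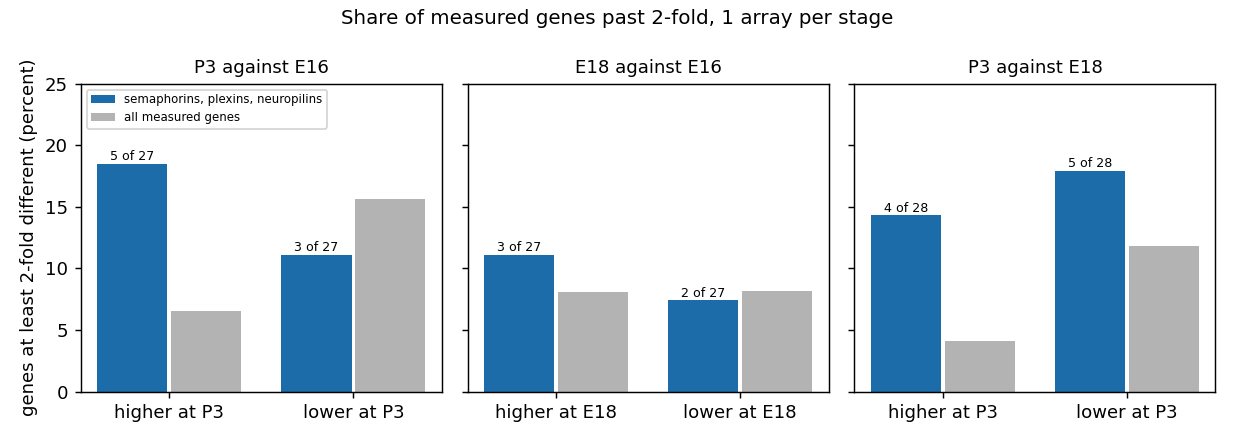
Percent of measured genes at least 2-fold higher or lower (vertical axis, from 0) in each comparison, for the semaphorin, plexin and neuropilin genes (blue, with counts) and for all measured genes (grey). The blue bars stand at 18.5% higher and 11.1% lower at P3 against E16, beside grey bars at 6.58% and 15.6%.

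Measurement error can be viewed here only through different probe sets for one gene. Over 3981 genes with 2 probe sets at or above the floor on both arrays, the 2 log2 differences of P3 over E16 lay a median of 0.53 apart, and 21.6% were at least 2-fold apart. At E18 against E16 the median gap was 0.52 and at P3 against E18 it was 0.47. Members with a single measured probe set, such as Plxnd1, Sema4b, Sema4d and Sema4g, have no such check. Sema4f had 2 and Nrp2 had 2 probe sets past 2-fold in the same direction at P3 against E16. The array's control probe sets for the 3' and 5' ends of transcripts, a sign of RNA and labelling quality, also differed between arrays. The 3' to 5' ratio of beta-actin was 2.46 times as high at P3 as at E16 and 3.87 times as high at E18 as at E16. That of Gapdh was 0.355 times as high at P3 as at E16, 1.42 times as high at E18 as at E16 and 0.25 times as high at P3 as at E18. Both ratios were highest at E18, and relative to E16 they lay on opposite sides at P3. Their part in the member values was not tested.

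Partners further along the pathway were read from 3 lists, beside the 6.58% of all genes that were higher and the 15.6% that were lower at P3 against E16. Of 14 co-receptors and related surface proteins, 9 were measured at P3 against E16, with 1 higher and 2 lower (median log2 difference 0.00). Itgb1, the integrin chain that binds Sema7a, read 1186 at E16, 446.2 at E18 and 447.9 at P3, and was 2.65-fold lower at P3 than at E16. Chl1, an adhesion molecule that serves as a partner of neuropilins, was 2.13-fold lower, while another of its probe sets went the opposite way. Tyrobp, an adaptor found with plexin-A1 in myeloid cells and itself a macrophage marker, was 2.34-fold higher. L1cam, the partner of Nrp1 in Sema3a reception, was level at 340.1, 367.6 and 339.5.

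Of 33 genes that carry the signal below plexins, 29 were measured at P3 against E16, with 2 higher and 5 lower (median -0.27, beside -0.17 for all genes). These shares are near the background, so the genes below are values and the list is not set apart by them. Limk1, a kinase of cofilin, read 193.6, 399.7 and 512.7 at E16, E18 and P3, 2.65-fold higher at P3 than at E16. Arhgef11, an exchange factor bound by class B plexins, was 2.20-fold higher, with a log2 difference of 0.16 by another probe set. Mical1, an oxidoreductase of actin, was 3.70-fold lower, with -0.04 by another probe set. Farp1 was 3.31-fold lower, Gsk3b 3.22-fold and Rnd3, a small GTPase that binds plexins, 3.13-fold. Another Rnd3 probe set stood at -0.38 on the log2 scale. For Gsk3b the other 5 measured probe sets ran from -0.56 to 0.89 on the log2 scale. The fifth lower gene, chosen after its values were seen, was Dpysl3, a member of the CRMP family that responds to Sema3a in axons, at 2.10-fold, with -1.55 and -0.27 on the log2 scale by its other measured probe sets.

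Of 8 VEGF ligands and receptors, 6 were measured at P3 against E16, with 0 higher and 2 lower (median -0.54). Vegfd read 940.9 at E16, 150.6 at E18 and 136.8 at P3, 6.88-fold lower at P3 against E16, or -1.27 on the log2 scale by another probe set. Kdr, the main VEGF receptor and also on the endothelial list, read 2571, 1062 and 846.3, 3.04-fold lower. Vegfa was level at 358.5, 327.3 and 335.3.

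The labelled tissue was checked with 15 genes of papilla and odontoblasts, of which 14 were on the array. At or above the floor were 11 at E16 and 14 at both E18 and P3, and Col1a1, Dspp and Dmp1 were the ones below it at E16. The papilla's own markers differed widely between stages. At P3 against E16, 7 of the 14 were at least 2-fold higher, Dspp, the dentin matrix gene of odontoblasts, by at least 231-fold. The 5 that were at least 2-fold lower were Pax9, Barx1, Lhx6, Lhx8 and Prrx1, by 2.84-fold to 4.6-fold. These are transcription factors of the dental mesenchyme. Their direction from E16 to P3 was also seen for Nrp2, Sema4f and the brightest Sema3f probe set. It was shared by the 15.6% of all genes counted as lower. All 5 were already lower at E18 than at E16, by 2.81-fold to 4.45-fold. From E18 to P3 their brightest probe sets moved little, between -0.34 (Pax9) and 0.25 (Barx1) on the log2 scale. Over that step Nrp2 stood at -1.32, Sema3f at -1.58 and Sema4f at -1.74 by brightest probe sets. The second Nrp2 probe set was level there, at 0.02. Other transcription factors on the list did not share the pattern of these 5. From E16 to P3, Dlx2 rose 3.37-fold, Msx2 2.19-fold and Msx1 1.8-fold, while Prrx2 fell 1.16-fold. A second probe set stood at 0.03 on the log2 scale for Msx2 and at 0.15 for Msx1. Other probe sets stood at 0.06 and -0.89 on the log2 scale for Pax9 and at -0.19 and -1.73 for Prrx1 at P3 against E16. Markers of other cells moved too. Of 11 epithelial genes, 10 were measured and all 10 were past 2-fold and higher at E18 relative to E16. At that step 3 members were counted as higher too, Sema3d, Plxnc1 and Sema4a, the last by 1 of its 2 probe sets. At P3 against E18 the list was split, with 8 of 11 measured at least 2-fold lower. The others went the opposite way, Enam by at least 11.4-fold, Amelx by 4.14-fold and Ambn by 1.67-fold. Their summed signal was 7198 at E16, 22651 at E18 and 12256 at P3. Of 14 macrophage and leukocyte genes, 13 were measured at P3 against E16, with 7 higher and 0 lower. Their sum was 2624, 5030 and 9361 across E16, E18 and P3. By brightest probe sets that order was also seen for Sema4d, Sema4b, Plxnd1 and Plxna1. It was seen too for Plxna2 and Plxna4, both below the floor at E16. The sums of the papilla and odontoblast genes (12791, 17769 and 42076) and of the mural cell genes rose in that order too. Of 8 osteoclast genes, 5 were measured at P3 against E16, with 0 higher and 3 lower (median -1.53), namely Acp5 by 2.89-fold, Atp6v0d2 by at least 3.32-fold and Mmp9 by 4.55-fold. The osteoclast sum was 3412, 1158 and 3156 at E16, E18 and P3, and without Ctsk, which read 1522, 486.2 and 2558, it was 1891, 672 and 598. Neuron genes summed to 627, 834 and 656, Schwann cell genes to 555, 610 and 473, and mural cell genes to 5170, 5554 and 6462. No marker on these lists was at 0 on any array, and most neuron markers were below the floor, with 3, 4 and 3 of 12 above it. The part of any of these cells in the member values was not tested. On the arrays themselves, 18 hybridisation control probe sets read a median 2.17 times as high at E18 as at E16 and 1.04 times as high at P3 as at E16.

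**Figure D4:**
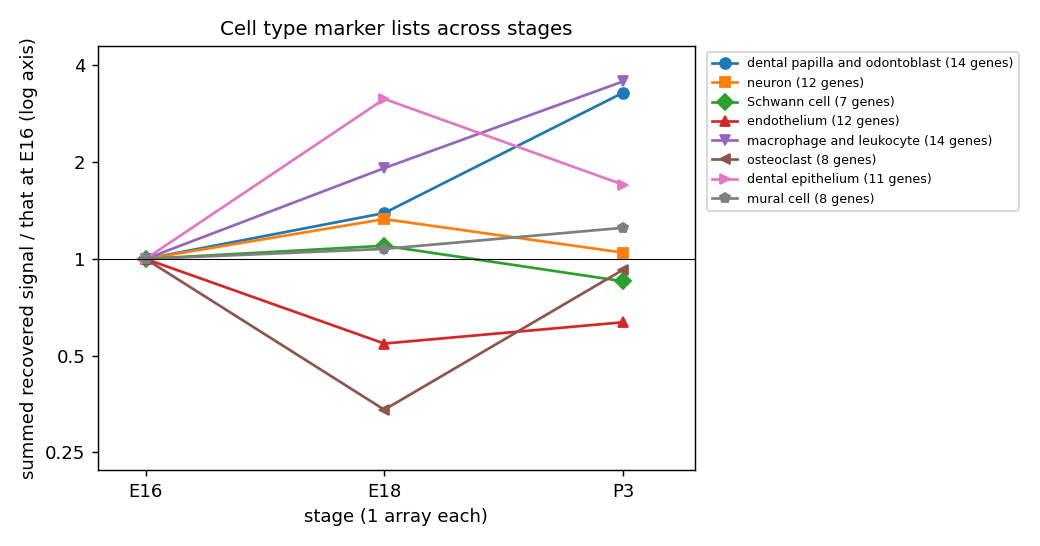
Summed recovered signal of each cell type marker list divided by its value at E16 (vertical log axis) at E16, E18 and P3, 1 array each. The epithelial list is highest at E18 (22651 in sum, against 7198 at E16), though Amelx, Ambn and Enam on it are highest at P3. The macrophage list (9361), the papilla and odontoblast list and the mural cell list are highest at P3.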

How the data were processed

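RNA of pooled papillae at 3 stages was labelled with biotin in 2 cycles and hybridised to 1 array per stage, per the labels' protocols. Deposited are ratios, 1 per array for each of 45101 probe sets. The software GCOS appears in the submitters' processing notes with no version, and how the values were scaled and centred is not stated in the sources used here. From the values, 40754 probe sets (90.4%) have a middle value of 1 within 1e-06. The other 4347 are whole numbers of steps, which gave array factors relative to P3 of 0.7177 for E16 and 1.0802 for E18. Array medians are nearly equal (82.1, 81.8 and 82.3 at E16, E18 and P3). Direction and relative scale are those of the deposited columns, and the absolute level is lost.

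A level was recovered as the smallest number of steps for which every signal was whole to a relative tolerance of 3e-07. It can be understated, by a common factor or by a chance solution, and is not overstated where the true level meets the tolerance. Deposited ratios are unaffected, but the choice of the brightest probe set rests on the level. So do the floor status of a value, differences with a value raised to the floor, the counts and the summed signals. For 16 of the 78 member probe sets, with middle signals of 437 or more, the chance of a false solution is above about 1%. The design had assumed signals, so this step was chosen with the data in view. Values under 82.0, the pooled median, count as below the floor. Log2 differences were taken after raising lower values to the floor.

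Every member measured in at least 1 comparison was to be named, and from each other list up to 6 genes at least 2-fold different at P3 against E16; L1cam and Vegfa were named after their values were seen. Members and lists were chosen with earlier results of these data known. Names came from the platform annotation, in which 932 probe sets with several symbols were not used, and 0 member symbols changed when updated. Analysis used Python 3.11.15, numpy 2.4.6 and pandas 2.3.3, and was tested on simulated data. Alternatives varied scaling, floor, probe sets and threshold. The build of the array annotation is not given, so no array positions are printed; the upstream windows are RefSeq's.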

Additional observations from a re-analysis of the deposited data

How the results depend on the processing

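No paired analysis was possible because each stage has 1 array, and no replicate could be left out. Median scaling was planned and changed no count, since the deposited arrays already have nearly equal medians; scaling on bright probe sets was added after seeing the data. At P3 against E16, the count of members at least 2-fold higher (5) became 8 with no floor and 8 at 1.5-fold, and the count lower (3) became 1 with the median over probe sets and 5 at 1.5-fold. The members' median (-0.06) became 0.31 after quantile normalization and 0.23 after scaling on bright probe sets. At E18 against E16, the count higher (3) became 5 with the floor at 0.5 times, 6 with no floor and 7 at 1.5-fold. The count lower (2) became 1 after quantile normalization, 0 with the median over probe sets, 1 without probe sets shared between transcripts, 0 after scaling on bright probe sets and 6 at 1.5-fold. At P3 against E18, the count higher (4) became 7 at 1.5-fold, and the count lower (5) became 2 with the median over probe sets and 2 without shared probe sets. The median (0.16) became -0.07 with the floor at 2 times and 0.34 after scaling on bright probe sets. With no floor, all 31 genes entered each comparison.

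The setting without shared probe sets left out all those of the types _s_at, _x_at and _a_at. With it, Sema3f turned to 0.02 at P3 against E16 and to 0.41 at E18 against E16 on the log2 scale. Sema4a turned with it to -0.69 at E18 against E16 and 0.28 at P3 against E18. With the median over probe sets, Sema6d at E18 against E16 turned to 0.01. In each case other probe sets of the gene stand for it. At P3 against E16, Plxnd1, Sema4b, Sema4d and Sema4f stayed past 2-fold under all 8 alternatives that gave gene values. The ranges were 1.54 to 1.93 for Plxnd1, 1.48 to 1.78 for Sema4b, 1.29 to 1.62 for Sema4d and -1.76 to -1.10 for Sema4f. Plxnd1, Sema4b and Sema4d each had 1 measured probe set, with both signals above every floor used. The floor and probe set alternatives could therefore not change their values, and only scaling could. Nrp2, Sema3d and Sema5a stayed past 2-fold under 7 alternatives. Nrp2 came to -0.93 and Sema5a to 0.89 with the median over probe sets, and Sema3d to 0.10 with the floor at 2 times (2.46 with no floor). Sema3f stayed past 2-fold under 6, with -0.03 by the median over probe sets. Nrp1, Plxna3, Plxnb1, Plxnb2, Sema3a, Sema4a and Sema7a, between -0.27 and -0.06 as reported, changed sign under at least 1 alternative.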

Other observations

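Some probe sets below the floor on all 3 arrays had large deposited ratios and entered no count. A second Sema7a probe set read 2.15 at E16, 4.86 at E18 and 18.1 at P3, a ratio of 8.41 for P3 over E16, where the brightest Sema7a probe set was level. Sema6b, which has 1 probe set, read 18.44, 12.1 and 52.1, a ratio of 2.82. Another Sema5a probe set read 10.76, 39.21 and 57.5, a ratio of 5.34. Plxnb3 had ratios of 1.90 and 1.57 by its 2 probe sets. Whether these low signals are above background was not tested.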
